A study of Mus musculus with 4 samples.

Results

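The extracellular metalloproteases of mouse embryonic fibroblasts (MEFs) and their tissue inhibitors were compared between WT and *Phf2* KO cells by RNA-seq. The members were the genes whose symbols begin with *Mmp*, *Adam* or *Adamts* and a number, the *Adamtsl* genes, and *Timp1* to *Timp4*. They came to 84 of the 24391 genes of the count table, with 23 *Mmp*, 33 *Adam*, 24 *Adamts* (5 of them *Adamtsl*) and 4 *Timp* genes, and the rule uses no measured value. RNA-seq was made from 4 libraries of primary MEFs taken from E13.5 embryos and brought to quiescence, 2 labelled WT and 2 labelled *Phf2* KO. Every library is labelled *Phf2* flox/flox with ERCre/+, a tamoxifen-dependent Cre that the study drove from the *Rosa26* locus, and the label Tamoxifen stands on the *Phf2* KO libraries alone. The treatment text, 0.5 µM 4-hydroxytamoxifen (4-OHT) for 7 days in medium with charcoal-treated serum, is the same on all 4 libraries, and the vehicle of the WT cells is not named. Loss of *Phf2*, Cre activity and 4-OHT therefore cannot be told apart. The labels number the libraries of each group as replicates 1 and 2 without naming the embryos. The p-values measure the spread between these libraries, estimated in part over all genes. Within each group the libraries differed in sex (below).

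Matrix metalloproteases (MMPs) are zinc enzymes, secreted or held at the cell surface, that cleave collagens, proteoglycans and other matrix proteins after removal of a propeptide. ADAMs are membrane proteins, many of which shed the outer parts of other membrane proteins, such as growth factor precursors. ADAMTS enzymes are secreted, bind the matrix, and process procollagens, cleave large proteoglycans or act on microfibrils, while the ADAMTS-like proteins lack the protease domain. TIMPs bind the active site of these enzymes, and fibroblasts are a main source of both the enzymes and the inhibitors in connective tissue. Phf2 is a PHD finger protein that reads methylated histone H3.

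The start regions of 4 members whose counts are given below are shown, and no expression value was computed from them. *Mmp3* and *Mmp13* are 2 of the 10 *Mmp* genes in 1 cluster on chromosome 9, and *Adamts2* and *Adamts3* are 2 of the 3 procollagen N-proteinases. Each window runs from 250 bases before to 50 bases after the RefSeq start, 5′ to 3′ on the gene's own strand. The sequences are those of RefSeq on GRCm38.p6, and the coordinates come from an exact match of each to NCBIM37 (mm9), the build to which the authors aligned. Capitals mark the AP-1 heptamer TGACTCA, the binding element of Fos and Jun dimers, and the GC box GGGCGG, the element of Sp1, each read on either strand as TGAGTCA and CCGCCC.
*Mmp3*, chr9:7445572-7445871, forward strand: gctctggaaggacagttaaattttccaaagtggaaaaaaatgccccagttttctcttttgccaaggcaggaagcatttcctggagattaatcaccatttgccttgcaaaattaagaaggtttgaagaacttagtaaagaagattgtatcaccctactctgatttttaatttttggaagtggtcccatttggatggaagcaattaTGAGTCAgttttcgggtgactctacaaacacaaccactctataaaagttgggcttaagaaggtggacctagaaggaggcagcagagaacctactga
*Mmp13*, chr9:7272264-7272563, forward strand: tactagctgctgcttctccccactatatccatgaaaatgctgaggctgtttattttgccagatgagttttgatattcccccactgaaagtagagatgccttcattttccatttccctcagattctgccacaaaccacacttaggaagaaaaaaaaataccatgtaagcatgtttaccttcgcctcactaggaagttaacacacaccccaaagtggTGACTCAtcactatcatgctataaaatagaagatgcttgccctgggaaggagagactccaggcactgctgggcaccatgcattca
*Adamts2*, chr11:50415337-50415636, forward strand: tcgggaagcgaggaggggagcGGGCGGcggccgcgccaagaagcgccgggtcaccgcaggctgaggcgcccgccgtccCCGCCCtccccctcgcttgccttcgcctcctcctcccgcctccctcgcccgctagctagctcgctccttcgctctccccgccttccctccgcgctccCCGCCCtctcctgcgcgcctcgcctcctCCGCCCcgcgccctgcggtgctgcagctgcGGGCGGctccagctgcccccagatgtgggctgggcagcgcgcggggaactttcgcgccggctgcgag
*Adamts3*, chr5:90312310-90312609, reverse strand: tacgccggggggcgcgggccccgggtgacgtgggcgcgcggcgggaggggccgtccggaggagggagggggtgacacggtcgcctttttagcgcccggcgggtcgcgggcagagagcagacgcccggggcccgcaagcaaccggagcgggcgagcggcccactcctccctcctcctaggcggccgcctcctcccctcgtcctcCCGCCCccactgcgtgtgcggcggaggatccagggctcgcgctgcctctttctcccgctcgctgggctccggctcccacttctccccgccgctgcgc

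The *Mmp3* window held 1 AP-1 heptamer, starting 46 bases before the start, and the *Mmp13* window held 1, starting 35 bases before it. Neither window held a GC box, whereas the *Adamts2* window held 5 GC boxes and the *Adamts3* window 1. The chromosome 9 cluster spans 427072 bases (7272514-7699585) and holds, in order, *Mmp13*, *Mmp12*, *Mmp1b*, *Mmp3*, *Mmp1a*, *Mmp10*, *Mmp8*, *Mmp27*, *Mmp20* and *Mmp7*. An AP-1 heptamer lay in a window of 7 of these 10 genes and a GC box in none, the exceptions for AP-1 being *Mmp8*, *Mmp27* and *Mmp20*. Over all 32851 mouse windows of this length, 5.2% held the heptamer and 35.7% the GC box. RefSeq windows were at hand for 53 of the 84 members, 58 windows in all, of which 10 (17.2%) held the heptamer and 27 (46.6%) the GC box. The motifs cannot overlap each other, and overlapping GC boxes were each counted. A match describes the letters only and says nothing of a factor bound there.

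The libraries held between 21094743 and 26094268 counts, so that 3 counts corresponded to between 0.116 and 0.145 CPM, a unit that sets each library to the same total. Counts are given below as deposited, while overlap between groups, ratios and fold changes were taken after scaling. *Phf2* had 3244 and 3680 counts in replicates 1 and 2 of WT against 1454 and 2158 in *Phf2* KO, which put its level in *Phf2* KO at 57.9% of WT (log2 fold change -0.79, standard error 0.14). These values are of RNA counted over the gene. For its *Phf2* KO MEFs the study reports depletion of the protein by immunoblot and loss of nearly all Phf2 binding sites in chromatin. The replicate numbers carried a difference in sex in both groups. In WT and *Phf2* KO, *Xist* had 10042 and 8336 counts in replicate 1 but 3 and 12 counts in replicate 2. The Y-linked *Ddx3y* had 6 and 10 counts in replicate 1 but 1271 and 1295 in replicate 2. Fibroblast marker genes (14 genes, collagens and *Postn* among them) summed to 74470 and 79207 CPM in WT and to 66682 and 64445 CPM in *Phf2* KO. Macrophage marker genes (20 genes, *C1qb* and *Adgre1* among them) summed to 4530 and 5116 CPM in replicate 1 of WT and *Phf2* KO, and to 985 and 1530 CPM in replicate 2. Both sets are therefore given again below beside some of the members, and their part in the members' values was not tested. In bulk RNA, fewer cells of a type and less RNA per cell cannot be told apart.

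Of the 84 members, 52 had counts high enough to be tested (edgeR's filter on low counts), namely 15 *Mmp*, 13 *Adam*, 20 *Adamts* and all 4 *Timp* genes. The other 32 reached at most 12 counts in any library, and 13 of them were at 0 in all 4. A count of 0 allows a level of up to 3 counts. A mean count of at least 20 was found for 47 members and a lower one for 37, of which *Adam32*, *Adamts8*, *Mmp10*, *Mmp9* and *Timp4* still passed the filter. The members not tested included 20 of the 33 *Adam* genes, most of them known from testis, such as *Adam2*, *Adam3* and *Adam24*. *Adamts13*, the von Willebrand factor protease, *Adamts16*, *Adamts19* and *Adamts20* were not tested either. Among the *Mmp* genes the interstitial collagenases *Mmp1a* and *Mmp1b*, the neutrophil collagenase *Mmp8*, the matrilysin *Mmp7*, the enamel protease *Mmp20*, and *Mmp21*, *Mmp24* and *Mmp25* were below the filter.

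Each family summed to a like level in both groups. Summed over a family and scaled by TMM (edgeR's scaling of libraries), the 4 *Timp* genes reached 5975 and 6610 CPM in replicates 1 and 2 of WT against 5902 and 6124 CPM in *Phf2* KO. The 23 *Mmp* genes summed to 3091 and 3950 CPM in WT and to 3180 and 3741 CPM in *Phf2* KO. For the 24 *Adamts* genes the sums were 2707 and 3269 CPM in WT and 2912 and 3219 CPM in *Phf2* KO. In these 3 families the groups overlapped, and the sums of replicate 2 were the higher ones in both groups. The 33 *Adam* genes summed to 1306 and 1168 CPM in WT and to 1381 and 1206 CPM in *Phf2* KO, again overlapping, with the higher value in replicate 1 of each group. Within these sums *Adam8* alone gave 172 and 40.0 CPM in WT and 195 and 60.6 CPM in *Phf2* KO.

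**Figure D1:**
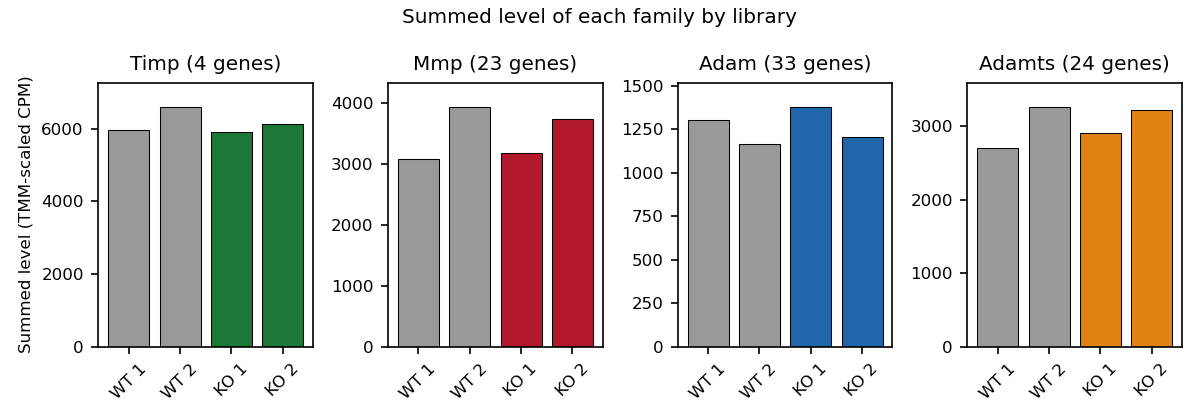
Summed level (TMM-scaled CPM, linear axes from 0, a scale of its own in each panel) of the *Timp*, *Mmp*, *Adam* and *Adamts* genes, with 1 bar for each of the 2 WT (grey) and 2 *Phf2* KO (coloured) libraries. The *Timp* sums lay between 5902 and 6610 CPM and the *Adam* sums between 1168 and 1381 CPM, and the 2 groups overlapped in every panel.

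To compare genes with each other, levels were divided by exon length and averaged over the 4 libraries, and a few genes then made up most of each family. *Timp2* and *Timp3* gave 97.0% of the summed *Timp* level per kb, *Mmp2* and *Mmp14* gave 87.8% of the *Mmp* level, *Adamts1*, *Adamts2* and *Adamts5* gave 64.6% of the *Adamts* level, and *Adam9*, *Adam15* and *Adam19* gave 61.4% of the *Adam* level. *Timp2* led with 656 CPM per kb (613 to 696 over the libraries), followed by *Mmp2*, the gelatinase A, with 566 (456 to 682). *Mmp14*, the membrane protease that activates pro-Mmp2 at the cell surface together with Timp2, had 517 (500 to 548), and *Timp3*, which binds to the matrix and also inhibits Adam17 and ADAMTS enzymes, had 438 (402 to 474). The *Mmp2* range overlapped with those of its neighbours in this order, *Timp2*, *Mmp14* and also *Timp3*, so the order of these 4 was not resolved beyond the spread between libraries except for *Timp2* above *Mmp14* and *Mmp14* above *Timp3*. *Adamts1* came next with 165 CPM per kb (147 to 176), clear of the genes on both sides. *Mmp11*, the stromelysin 3, had 78.1 (64.3 to 87.3), *Adamts2* 75.0 (63.3 to 89.6), *Adam9* 61.5 (56.6 to 66.6), *Adamts5* 58.2 (49.3 to 64.8) and *Adam15* 47.4 (44.3 to 49.9), and the ranges of each of these neighbours overlapped.

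**Figure D2:**
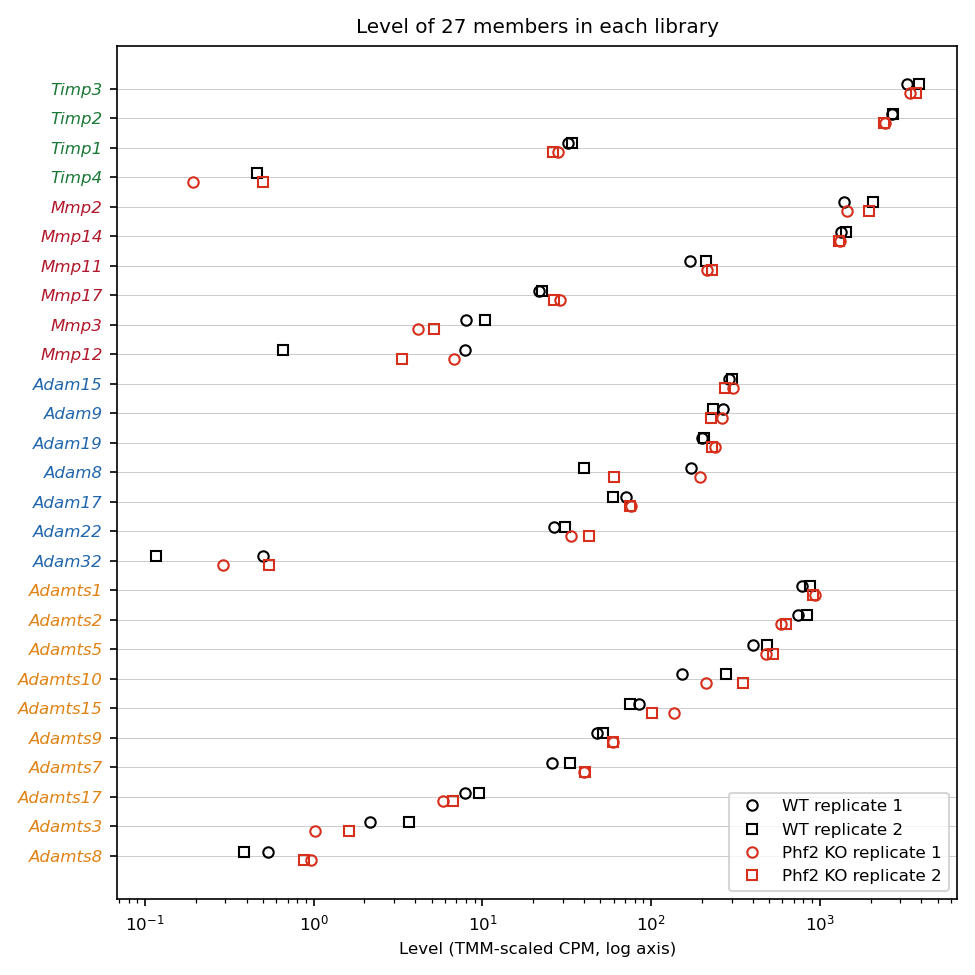
Level (TMM-scaled CPM, log axis) of 27 members in each library, by family, with black symbols for WT, red symbols for *Phf2* KO, circles for replicate 1 and squares for replicate 2. The red symbols of *Mmp3*, *Adamts3*, *Adamts2* and *Adamts17* lie to the left of the black ones and those of *Adamts15* and *Adamts8* to the right, while *Mmp12* and *Adam8* spread by replicate; the 0 of *Timp4* in WT replicate 1 has no place on the log axis.

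No member was called in *Phf2* KO against WT at an adjusted p under 0.1 (quasi-likelihood test of edgeR, Benjamini-Hochberg adjustment over 13668 genes). Among all genes 0% were called higher and 0.00732% lower, the latter being 1 gene, *Dkk2*, named here after its value was seen. DESeq2 and limma-voom also called 0 members. At an unadjusted p under 0.05, edgeR gave 4 members higher and 4 lower, 7.69% each of the 52 tested, against 1.54% higher and 2.67% lower among all genes. DESeq2 gave 6 higher and 2 lower by that measure, and limma-voom 4 and 3. The 4 lower ones were *Adamts3*, *Mmp3*, *Adamts2* and *Timp1*, and the 4 higher ones *Adamts15*, *Mmp17*, *Adamts7* and *Adamts9*, with adjusted p = 0.999 for each.

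The median log2 fold change was 0.03 over the 52 members, against 0.01 over all genes. By family it was 0.05 for *Mmp*, 0.16 for *Adam*, 0.02 for *Adamts* and -0.08 for *Timp*. Estimates within 0.5 log2 units of no difference were found for 47 of the 52, against 12676 of all 13668 genes. The other 5 members were *Adamts3* and *Mmp3* (lower) and *Adamts8*, *Adamts15* and *Timp4* (higher). The *Phf2* KO libraries both lay above both WT libraries in 12 members (23.1%) and both below in 9 (17.3%), against 15.5% and 18% of all genes. An exact permutation test of 2 against 2 libraries cannot go below p = 0.33, so no such test is given for single members.

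**Figure D3:**
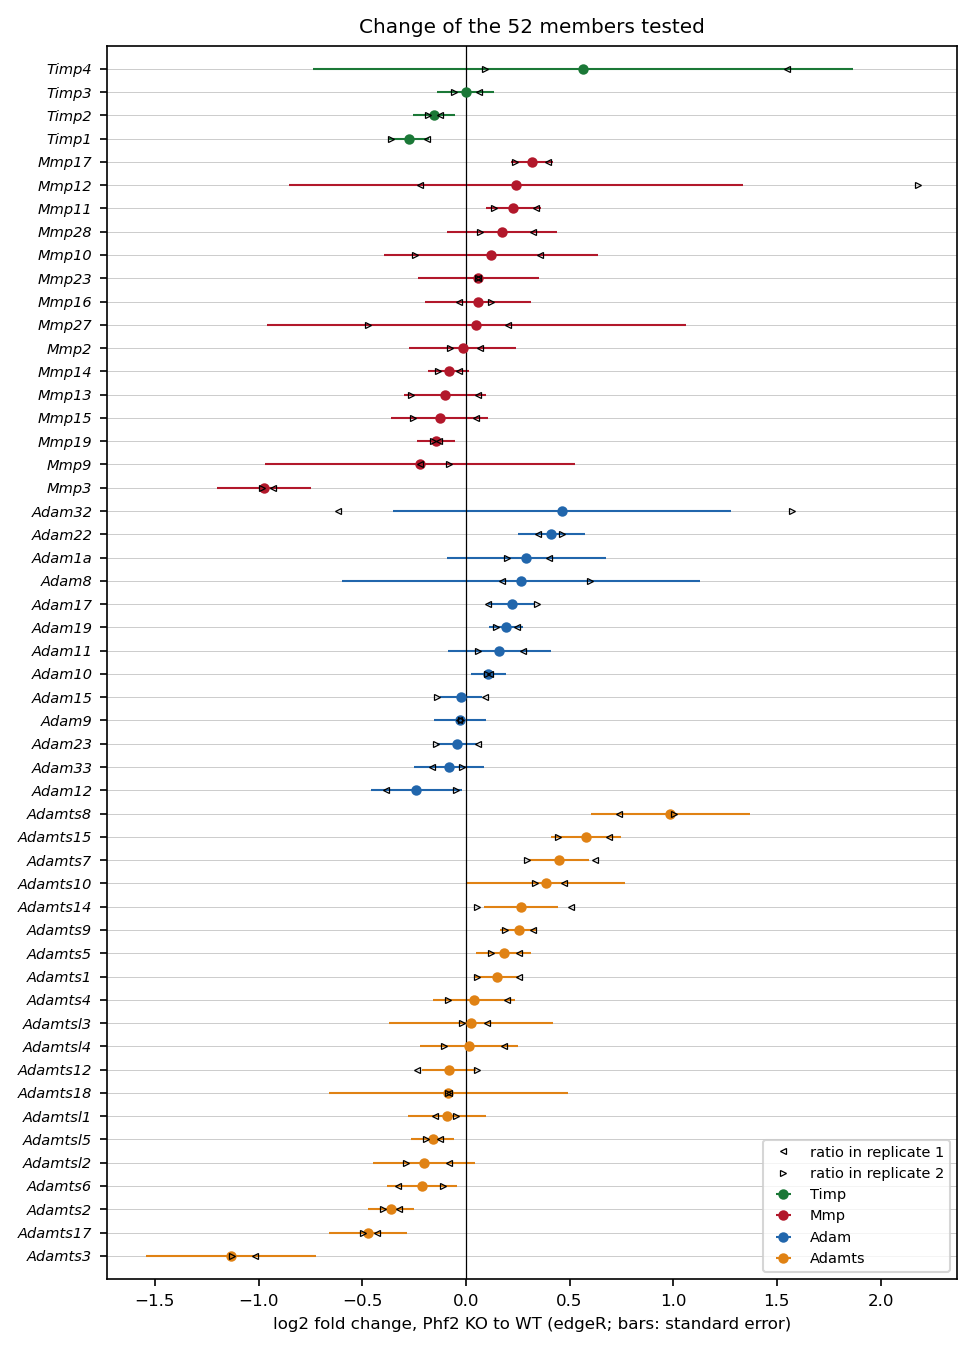
Log2 fold change of *Phf2* KO to WT (edgeR, filled symbols, bars for the standard error) of the 52 members tested, sorted within each family, with open triangles for the log2 ratio within replicate 1 (pointing left) and replicate 2 (pointing right). *Adamts3* (-1.13) and *Mmp3* (-0.97) stand at the low end with both triangles beside the estimate, *Adamts8* (0.99) and *Adamts15* (0.58) at the high end, and *Mmp12*, *Adam32* and *Timp4* have widely separated triangles.

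*Mmp3*, the stromelysin 1, a broad matrix protease that also activates other pro-MMPs, had 193 and 269 counts in replicates 1 and 2 of WT against 86 and 125 in *Phf2* KO. Both *Phf2* KO libraries lay below both WT libraries, and the *Phf2* KO level was 51.0% of WT (log2 fold change -0.97, standard error 0.23, edgeR unadjusted p = 0.0093). Its ratio was nearly the same in both replicate numbers, at -0.93 and -0.98 log2 units. Of the other tested genes of the chromosome 9 cluster, *Mmp13* did not show such a difference. The standard errors of the rest were too large to show one or its absence. *Mmp13*, the collagenase 3, had 106 and 120 counts in WT against 95 and 92 in *Phf2* KO (log2 fold change -0.10, standard error 0.20), with ratios of 0.06 and -0.27 in replicates 1 and 2. *Mmp10*, the stromelysin 2, had 14 and 12 counts in WT against 16 and 9 in *Phf2* KO, and *Mmp27* had 32 and 10 in WT against 32 and 6 in *Phf2* KO. With standard errors of 0.52 and 1.01 log2 units for these 2 genes, a difference of the size seen for *Mmp3* was not detectable. The remaining 5 genes of the cluster had at most 2 counts in any library. *Mmp12* is described below with the genes that followed the replicate number.

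The procollagen N-proteinases, which cut the amino-terminal propeptide from fibrillar procollagens, differed among themselves. *Adamts2*, the most abundant of the 3, had 17797 and 21714 counts in WT against 12248 and 15248 in *Phf2* KO. The groups did not overlap, and its level in *Phf2* KO was 77.8% of WT (log2 fold change -0.36, standard error 0.11, edgeR unadjusted p = 0.0261). *Adamts3* had 52 and 95 counts in WT against 21 and 39 in *Phf2* KO. Its groups did not overlap either, and its level was 45.5% of WT (log2 fold change -1.13, standard error 0.41, edgeR unadjusted p = 0.0436). *Adamts14*, by contrast, had 372 and 544 counts in WT against 456 and 523 in *Phf2* KO, which after scaling put both *Phf2* KO libraries above WT (log2 fold change 0.27, standard error 0.18). Of the fibrillar collagen genes, *Col1a1* and *Col3a1* were not called by any fit on group alone, while *Col5a1* had 133010 and 140273 counts in WT against 82754 and 87564 in *Phf2* KO (log2 fold change -0.52, standard error 0.12). DESeq2 on group alone called *Col5a1* (adjusted p = 0.00042), and edgeR did not (adjusted p = 0.999). *Col1a1* had 555521 and 716012 counts in WT against 452469 and 506641 in *Phf2* KO (log2 fold change -0.24, standard error 0.16), and *Col3a1* had 284235 and 325294 against 206779 and 249200 (-0.26, standard error 0.13). Fibroblast markers as a sum were lower in *Phf2* KO in both replicates, as given above. Gene by gene, 6 of the 14 were higher in *Phf2* KO in replicate 1 and 1 in replicate 2. The part of these markers in the lower *Adamts2*, *Adamts3* and *Mmp3* counts was not tested.

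The proteoglycanases, ADAMTS enzymes that cleave versican and aggrecan, had estimates on the other side. The 6 tested were *Adamts1*, *Adamts4*, *Adamts5*, *Adamts8*, *Adamts9* and *Adamts15*, while *Adamts20* was not tested. All 6 had estimates above 0, between 0.04 and 0.99 with a median of 0.22 log2 units. Of all 13668 genes, 7003 had an estimate above 0. *Adamts4* was the lowest of the 6 (standard error 0.20), with ratios of 0.20 and -0.09 log2 units in replicates 1 and 2. *Adamts15* had 2033 and 1937 counts in WT against 2823 and 2440 in *Phf2* KO, at 150% of the WT level (log2 fold change 0.58, standard error 0.17, edgeR unadjusted p = 0.0213). Both *Phf2* KO libraries lay above both WT libraries, with ratios of 0.69 and 0.44 log2 units in replicates 1 and 2. *Adamts8* lies next to it, on the other strand of chromosome 9 with 20109 bases between the genes, and had 13 and 10 counts in WT against 20 and 21 in *Phf2* KO. Its groups did not overlap, but the mean count was under 20 (log2 fold change 0.99, standard error 0.38, edgeR unadjusted p = 0.0543). *Adamts9* had 1150 and 1345 counts in WT against 1238 and 1421 in *Phf2* KO (log2 fold change 0.26, standard error 0.09, edgeR unadjusted p = 0.0388). *Adamts1* and *Adamts5*, neighbours on chromosome 16 with 55056 bases between them, were the abundant proteoglycanases. *Adamts1* had 18808 and 22832 counts in WT against 19286 and 21917 in *Phf2* KO (0.15, standard error 0.11), and *Adamts5* had 9624 and 12533 against 9872 and 12608 (0.18, standard error 0.13). Of their substrates, the versican gene *Vcan* had 2238 and 1745 counts in WT against 1257 and 1322 in *Phf2* KO (log2 fold change -0.47, standard error 0.18), and the aggrecan gene *Acan* had at most 14 counts in any library.

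Among the other ADAMTS genes, *Adamts17* and *Adamts10*, both linked to fibrillin microfibrils, had estimates of opposite sign. *Adamts17* had 190 and 248 counts in WT against 121 and 162 in *Phf2* KO (log2 fold change -0.47, standard error 0.19), with no overlap between the groups. *Adamts10* had 3665 and 7227 counts in WT against 4369 and 8442 in *Phf2* KO, so that the groups overlapped while the ratio within each replicate number was 0.47 and 0.33 log2 units. *Adamts7*, which cleaves cartilage oligomeric matrix protein, had 622 and 853 counts in WT against 824 and 969 in *Phf2* KO (log2 fold change 0.45, standard error 0.15, edgeR unadjusted p = 0.0311). *Adamts12*, its closest relative, had 2064 and 2275 counts against 1506 and 2188 (-0.08, standard error 0.13). The 5 *Adamtsl* genes were all tested and lay between -0.20 and 0.02 log2 units.

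Of the inhibitors, *Timp1*, an inducible one, had 776 and 878 counts in WT against 585 and 633 in *Phf2* KO. Its groups did not overlap, and its level was 82.6% of WT (log2 fold change -0.28, standard error 0.10, edgeR unadjusted p = 0.0437). *Timp2* had 64317 and 70401 counts in WT against 50712 and 57432 in *Phf2* KO, 89.9% of WT after scaling (-0.15, standard error 0.10), also without overlap. *Timp3* had 78923 and 100218 counts in WT against 70995 and 89145 in *Phf2* KO, with a log2 fold change of -0.00 (standard error 0.14) whose sign turned with the scaling and the fit. *Timp4* had 0 and 12 counts in WT against 4 and 12 in *Phf2* KO, and the standard error of its estimate (log2 fold change 0.56, standard error 1.30) exceeded the estimate. *Timp1*, *Timp3* and *Timp4* lie within the synapsin genes *Syn1*, *Syn3* and *Syn2* on the other strand, and the authors aligned the reads as reverse stranded.

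The most abundant MMPs had estimates near 0. *Mmp2* had 33371 and 53734 counts in WT against 30102 and 47266 in *Phf2* KO, so replicate 2 was higher than replicate 1 in each group while the log2 fold change was -0.02 (standard error 0.26). *Mmp14* had 32294 and 36921 counts in WT against 27152 and 31200 in *Phf2* KO (-0.08, standard error 0.10), which after scaling put both *Phf2* KO libraries just below WT. *Mmp11* had 4100 and 5455 counts in WT against 4451 and 5550 in *Phf2* KO, above WT in both after scaling (0.23, standard error 0.13). It shares exon bases on the same strand with *Gm867*, so part of its reads may have been left unassigned or counted there. *Mmp17*, a protease anchored to the membrane by GPI, had 524 and 588 counts in WT against 594 and 643 in *Phf2* KO, at 125% of the WT level (log2 fold change 0.32, standard error 0.10, edgeR unadjusted p = 0.0298). The remaining membrane-type genes tested, *Mmp15* (-0.13) and *Mmp16* (0.06), had estimates within 0.18 log2 units of 0. So did *Mmp19* (-0.14), *Mmp23* (0.06) and *Mmp28* (0.17).

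The ADAM sheddases were spread over a narrow range. *Adam17*, which releases TNF and ligands of the EGF receptor, had 1709 and 1532 counts in WT against 1583 and 1802 in *Phf2* KO (log2 fold change 0.22, standard error 0.12). *Adam10*, which cleaves Notch receptors, had 2006 and 2329 counts against 1872 and 2312 (0.11, standard error 0.09), and after scaling both genes lay above WT in both libraries. *Adam9* (-0.03, standard error 0.13) and *Adam15* (-0.02, standard error 0.10), the ADAMs with the highest levels per kb, lay near 0. *Adam12*, or meltrin alpha, was the lowest of the family at -0.24 (standard error 0.22), and *Adam19*, or meltrin beta, lay at 0.19 (standard error 0.08). *Adam22*, which has no active protease site and is a receptor for LGI proteins in neurons, had 638 and 803 counts in WT against 698 and 1027 in *Phf2* KO (0.41, standard error 0.16), without overlap. *Adam1a* has the near copy *Adam1b* and shares exon bases on the same strand with *Mapkapk5*, which leaves its counts (39 and 72 in WT, 45 and 77 in *Phf2* KO) uncertain.

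The difference between replicates 1 and 2 was shared between the groups. Across the 52 members, the log2 difference of replicate 1 minus replicate 2 in WT had a Pearson's r of 0.759 with that in *Phf2* KO, and 0.776 across the 13668 genes, where the points share 4 libraries. Replicate 1 was over 1 log2 unit above replicate 2 in both groups for 4 members (7.69%), against 3.75% of all genes, and below it for 2 members (3.85%), against 0.658%. The 4 were *Adam8*, a protease of leukocytes, *Mmp12*, the macrophage elastase, *Mmp9*, the gelatinase B, and *Mmp27*. *Adam8* had 4153 and 1038 counts in replicates 1 and 2 of WT against 4031 and 1457 in *Phf2* KO. *Mmp12* had 190 and 17 counts in WT against 140 and 80 in *Phf2* KO. *Mmp9*, with a mean count under 20, had 18 and 7 counts in WT against 13 and 6 in *Phf2* KO. Of the macrophage markers, 19 of 19 tested were likewise above replicate 2 in replicate 1 of both groups. The markers at replicate 2 were also higher in *Phf2* KO than in WT for 19 of 19, and at replicate 1 for 12 of 19, beside *Adam8* ratios of 0.60 and 0.18 log2 units and *Mmp12* ratios of 2.18 and -0.22. The part of macrophage RNA in these values was not tested. *Adamts18* (26 and 62 counts in WT, 21 and 54 in *Phf2* KO) and *Timp4* (0 and 12 in WT, 4 and 12 in *Phf2* KO) were the 2 with more in replicate 2. With 0 counts in WT replicate 1, the WT difference of *Timp4* depends on the 0.1 CPM added before the logarithm.

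**Figure D4:**
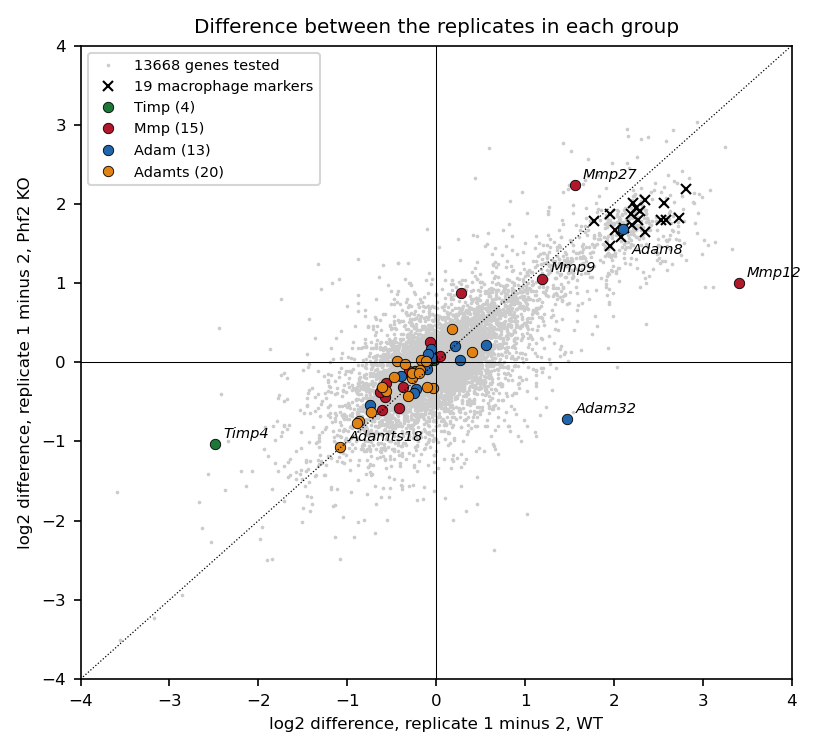
Log2 difference of replicate 1 minus replicate 2 in WT (horizontal axis) and in *Phf2* KO (vertical axis) for the 13668 genes tested (grey), the 52 members (coloured by family) and 19 macrophage markers (crosses), with the dotted line where both are equal; 9 genes lie outside the axes. *Adam8* (2.10 and 1.68) lies among the macrophage markers, *Mmp12* (3.40 and 1.00) to their right, and *Adamts18* (-1.08 and -1.08) and *Timp4* (-2.49 and -1.03) at the other end.

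Since the replicate number marked a difference in sex and a shared difference across genes, the comparison was also made within each number. A ratio beyond 0.3 log2 units one way in both numbers was found for 4 members higher (*Adamts8*, *Adamts15*, *Adamts10* and *Adam22*) and 4 lower (*Adamts3*, *Mmp3*, *Adamts17* and *Adamts2*), 7.69% each, against 3.84% and 4.85% of all genes. The ratios of *Adamts3* were -1.02 and -1.13, those of *Adamts17* -0.43 and -0.50, and those of *Adamts2* -0.32 and -0.40. On the other side, *Adamts8* had 0.74 and 1.00, and *Adam22* 0.35 and 0.46. For 15 of the 52 members the 2 ratios had opposite signs, and 37 shared a sign. Over all genes, the ratios had opposite signs for 5091 of 13668.

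**Figure D5:**
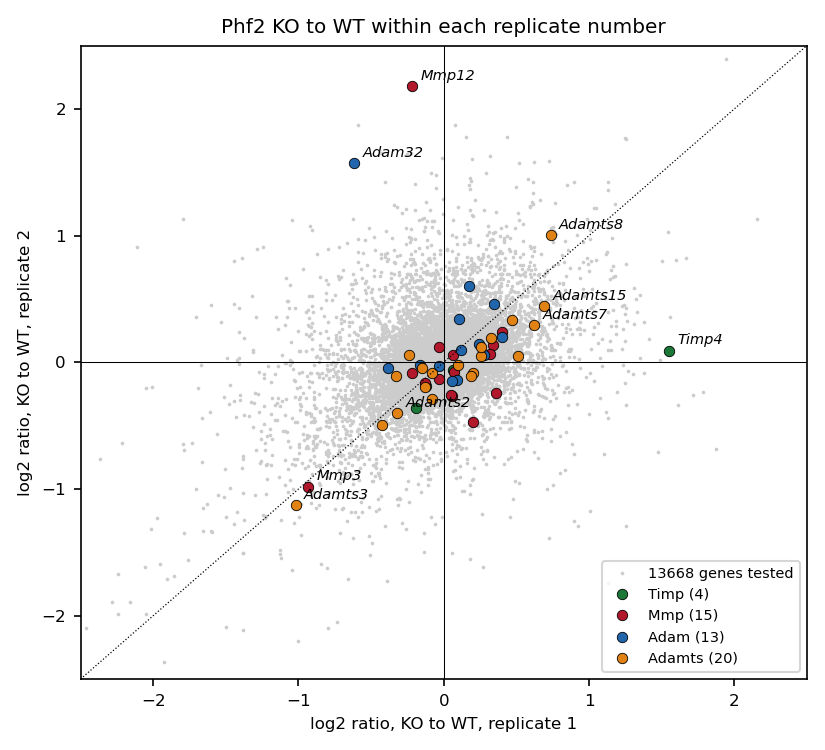
Log2 ratio of *Phf2* KO to WT within replicate 1 (horizontal axis) and within replicate 2 (vertical axis) for the 13668 genes tested (grey) and the 52 members (coloured by family), with the dotted line where both are equal; 10 genes lie outside the axes. *Adamts3* (-1.02 and -1.13) and *Mmp3* (-0.93 and -0.98) lie at the lower left on the dotted line, *Adamts8* (0.74 and 1.00) and *Adamts15* (0.69 and 0.44) at the upper right, and *Mmp12* and *Adam32* at the upper left.

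With the replicate number as a term in the edgeR fit, which leaves 1 residual degree of freedom, 10 members were called higher (19.2%) and 5 lower (9.62%) at an adjusted p under 0.1, against 5.77% and 5.2% of all genes. The p-values of this fit rest largely on variance estimated over all genes, not on each gene's own ratios. Its standard errors were 0.083 for *Adam10*, *Adamts15* and *Adamtsl5* alike. For *Mmp12*, with ratios of -0.22 and 2.18 in replicates 1 and 2, the standard error was 0.20. The 5 lower were *Mmp3* (edgeR adjusted p = 6.7e-07), *Adamts3* (0.00066), *Adamts2* (0.0043), *Adamts17* (0.043) and *Timp1* (0.055). The 10 higher were *Adamts15* (edgeR adjusted p = 1.5e-09), *Adamts7* (0.00011), *Adamts10* (0.00016), *Adam8* (0.00052), *Adam22* (0.00077), *Mmp17* (0.030), *Adamts9* (0.043), *Mmp11* (0.061), *Adam17* (0.075) and *Mmp12* (0.093). By role, these held 2 of the 3 procollagen N-proteinases as lower, 2 of the 6 tested proteoglycanases as higher, 1 of the 4 inhibitors as lower and no ADAM as lower. With the same term, limma-voom called these members except *Mmp12* (adjusted p = 0.34). DESeq2 with the term called *Adamts2*, *Adamts15*, *Adamts7*, *Adamts10* and *Adam8* alone among them. It did not call *Adam22* (adjusted p = 0.15), *Mmp11* (0.25), *Adamts9* (0.46), *Mmp17* (0.52), *Adam17* (0.56) or *Timp1* (0.64), and it gave no adjusted p to *Mmp3*, *Adamts3*, *Adamts17* and *Mmp12*. *Mmp12* and *Adam8*, given above beside the macrophage markers, are among the higher ones, and 10 of the 19 macrophage markers were also called higher by this fit. Of the 14 fibroblast markers, 4 were called lower by it (*Col5a1*, *Fbln1*, *Lum* and *Postn*).

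Genes around these families were looked at as lists. None of their members was called on group alone by edgeR, DESeq2 or limma-voom. The counts that follow are from the edgeR fit with the replicate term, which called 5.77% of all genes higher and 5.2% lower. Among the 8 other inhibitors tested, 4 were lower and 0 higher, beside *Timp1*. *Papln*, which resembles ADAMTS proteins, had 24 and 15 counts in WT against 3 and 2 in *Phf2* KO, and *Serpine2*, *Spock2* and *Spock3* were the others. *Reck*, the membrane-anchored MMP inhibitor, was not called, with 3087 and 3298 counts in WT against 2715 and 3204 in *Phf2* KO (log2 fold change 0.05, standard error 0.07).

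The lists that follow are again to be set beside 5.77% higher and 5.2% lower over all genes in this fit. Of the 20 genes tested for activation, trafficking and clearance of these proteases, 3 were higher and 0 lower. They were *Furin*, which removes the propeptide of many ADAM, ADAMTS and membrane-type MMP enzymes (4285 and 5216 counts in WT, 4898 and 5263 in *Phf2* KO), *Rhbdf1*, whose protein iRhom1 escorts Adam17, and *Tspan10*, a tetraspanin that escorts Adam10. The 9 other extracellular proteases tested gave 1 higher (*Fap*) and 5 lower (*Htra1*, *Htra3*, *Pappa*, *Tll1* and *Ctsk*). *Htra1*, a secreted serine protease, had 9689 and 10325 counts in WT against 6262 and 7925 in *Phf2* KO. Of 13 shed substrates of ADAMs, *Hbegf* was higher and *Nrg1* and *Cd44* lower, and of 15 matrix substrates *Col2a1* was higher and *Vcan* lower. The *Col2a1* counts, 28 and 542 in WT against 75 and 645 in *Phf2* KO, differed far more between the replicates than between the groups.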

How the data were processed

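The data were RNA-seq counts of 4 MEF libraries (poly-A RNA, single reads), 2 a group. Reads had been trimmed (Trim Galore) and cleared of ribosomal RNA (bowtie2) by the authors, who then aligned them with STAR as reverse stranded to MGSCv37 (mm9), and deposited whole-number counts per gene from featureCounts, without normalization. Tool versions and the gene annotation are not given in the sources used here. A deposited table of the authors' own DESeq2 comparison (fold changes, statistics and p-values) was not used.

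The tests used edgeR 4.0.16 under R 4.3.3 (filterByExpr, TMM, glmQLFit and glmQLFTest on group alone), adjusted by Benjamini-Hochberg over 13668 genes, with a threshold of 0.1. Standard errors are the absolute log2 fold change over the square root of F. Within-replicate ratios are log2(CPM + 0.1). Alternatives were DESeq2 1.42.0, limma 3.58.1 (voom), DESeq2's size factors (RLE), other filters on low counts, a pseudocount of 1, each library left out in turn, and the replicate number as a block. Blocked fits in DESeq2 and limma-voom, and the block at 0.05, were added after seeing the data. The edgeR test was run on simulated counts with known changes, drawn with a dispersion near that of the blocked fit (0.00363). The fit on group alone had a common dispersion of 0.0451. The simulation therefore does not show how many changes that fit would find.

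The members and lists were chosen with earlier results of these data known. A gene of the list of other inhibitors is not reported here. Members given in every library were the 4 *Timp* genes, the 3 most abundant of each other family, the 5 with the largest log2 fold changes each way, and those called with or without the block. Members, collagens and proteoglycans beyond that rule are given for their role and were chosen after their values were seen. Genes were placed on NCBIM37 by symbol, 1 member through a synonym. RefSeq start windows were matched exactly to that genome. The floor of 3 counts covers counting error only. Figures were drawn with Matplotlib 3.10.9 and pandas 2.3.3 under Python 3.11.15 with NumPy 2.4.6.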

Additional observations from a re-analysis of the deposited data

Results flagged for a closer look

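For 2 members the ratio of *Phf2* KO to WT had opposite signs in replicate 1 and replicate 2 and the ratios lay over 1 log2 unit apart; this difference was not tested. *Mmp12*, the macrophage elastase, gave -0.22 in replicate 1 and 2.18 in replicate 2, from 17 counts in WT replicate 2. *Adam32* gave -0.62 and 1.57, on counts of 12 and 3 in WT against 6 and 13 in *Phf2* KO. Neither gene differed between the groups in the edgeR fit on group alone.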

How the results depend on the processing

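Calls among the members rested on the replicate term. They stayed at 0 with DESeq2, limma-voom, RLE scaling, both other filters, a threshold of 0.05 and each library left out in turn. With the replicate block, edgeR called 10 higher and 5 lower (7 and 4 at 0.05), limma-voom 9 and 5, and DESeq2, which gave an adjusted p to 37 of the 52 members, 4 and 1. Over all genes, edgeR called 0 higher and 1 lower, DESeq2 10 and 56, limma-voom 0 and 0, and the blocked edgeR fit 789 and 711. The common dispersion was 0.0451 without the block and 0.00363 with it. The labels state no pairing, and with only 2 pairs the check rests on the sexes and on r = 0.776 between the replicate differences. Counts of members beyond 0.3 log2 units in both numbers ranged from 3 to 5 higher and stayed at 4 lower, and those of groups without overlap ranged from 11 to 12 and from 9 to 10. *Timp3* turned from -0.00 to 0.01 with DESeq2 and RLE (0.0071 each) and in blocked DESeq2 (0.010), to 0.0034 with limma-voom and the edgeR block, and to 0.0045 in blocked limma-voom; *Mmp2* turned to 0.0042 in blocked DESeq2. Leaving out 1 library, which leaves a lone sample assumed to vary like the other group, turned the sign of 9 named members. Their ranges were -0.11 to 0.061 for *Adam15*, -0.24 to 1.83 for *Adam32*, -0.81 to 1.68 for *Adam8*, -0.13 to 0.091 for *Adam9*, -0.028 to 0.89 for *Adamts10*, -0.65 to 2.94 for *Mmp12*, -0.26 to 0.30 for *Mmp2*, -0.10 to 0.12 for *Timp3* and -0.38 to 6.04 for *Timp4*, the last without WT replicate 2, where WT is at 0 and the value depends on the prior count. *Mmp3* stayed between -1.15 and -0.77, *Adamts3* between -1.52 and -0.70 and *Adamts15* between 0.35 and 0.77. The cause of these shifts was not tested. Among the 5 tested members with a mean count under 20, standard errors ran from 0.38 (*Adamts8*) to 1.30 (*Timp4*); whether depth limited them was not tested.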
